A study of Mus musculus with 4 samples.

Results

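The transcripts of 8 genes of the Fc receptor system were followed in cultured mouse spleen cells with and without imatinib. They are the IgG receptor chains Fcgr1, Fcgr2b, Fcgr3 and Fcgr4, the common signalling chain Fcer1g, the low-affinity IgE receptor Fcer2a (CD23), the IgM receptor Faim3, now named Fcmr, and the Fc receptor-like gene Fcrla. Members were taken as every non-control probe that carries 1 of these gene names, and the 8 genes of the 31829 gene names on the array had 8 probes, 1 a gene. Splenocytes of female C57BL/6 mice aged 8 weeks were kept for 72 h in conditioning medium with IL-4 and LPS, without imatinib (control, 2 arrays) or with 10 µM imatinib (2 arrays). Imatinib inhibits a small set of tyrosine kinases, among them Abl and Kit. All 4 cultures thus received IL-4 and LPS, and there was 1 concentration and 1 time point. The series asks how imatinib acts on activated B cells, but whole spleen cells were labelled, and nothing in the labels says whether the 2 arrays of a group came from separate mice or cultures. The p-values therefore measure only the spread between these arrays, which may be technical.

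Fc receptors bind the constant part of antibodies. On myeloid cells, the activating IgG receptors signal through the gamma chain encoded by Fcer1g, whose ITAM motif recruits the kinase Syk. Fcgr2b carries an inhibitory ITIM motif in its own tail and is the main IgG receptor of B cells, where it dampens the antigen receptor. CD23 is induced on B cells by IL-4 through STAT6, and the receptor for IgM is found on B cells and other lymphocytes. In RNA from a mixed culture, fewer cells of a type and less RNA per cell cannot be told apart.

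The members moved in both directions. With imatinib, Faim3 was 5.84-fold and Fcer1g 5.53-fold higher, while Fcgr4 was 3.77-fold, Fcer2a 1.89-fold, Fcgr3 1.55-fold and Fcgr2b 1.46-fold lower. Fcrla was 1.28-fold higher, and the call on it was lost under several settings given with its values. Thus 7 of the 8 probes were tested, 3 rose and 4 fell at an adjusted p under 0.05 (limma, Benjamini-Hochberg over all 25375 probes tested). Of all probes tested, 41.9% passed the same threshold, 19.3% as higher and 22.5% as lower. For 7 of the 7 tested members the control and imatinib arrays did not overlap, as for 73.7% of all probes tested; 3 of the 7 were higher on both imatinib arrays, as were 35.2% of all. The median difference of the 7 was -0.55 on the log2 scale, beside 0.000897 over all probes tested.

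**Figure D1:**
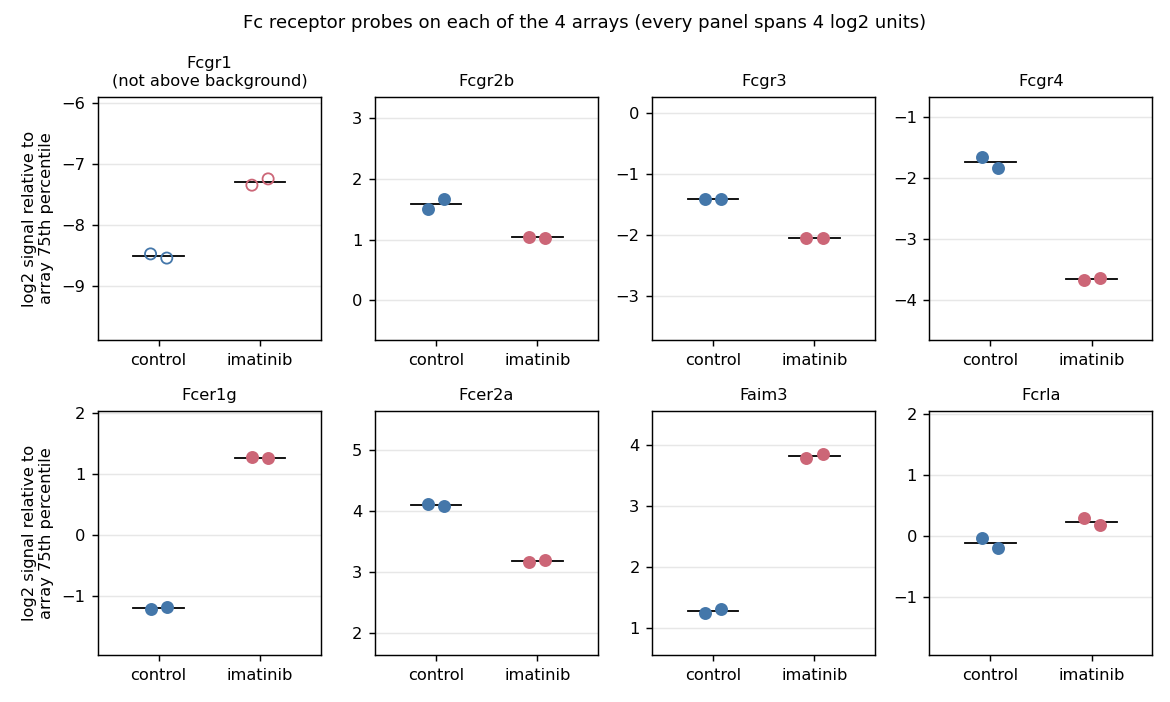
Each panel plots the scaled log2 signal of 1 member's probe, with 0 at the array's 75th percentile (vertical axis, 4 log2 units in every panel) for the 2 control and the 2 imatinib arrays, with a line at each group's mean of 2; open circles mark a probe that was not above background. Faim3 and Fcer1g lie more than 2 log2 units higher on both imatinib arrays, and Fcgr4 lies between -3.67 and -3.65 on them against -1.83 and -1.67 on the control arrays.

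The stretches just upstream of the start sites of members that moved are shown because they hold letters of sites read by factors of these cells. RefSeq promoter windows (GRCm38.p6, 250 bases before and 50 after each annotated start) matched all 8 genes, with 2 windows for Fcgr3 and 3 for Fcer2a. Capitals mark TTCCTC, the reverse complement of GAGGAA, a core of Ets family sites including those of PU.1. In Fcer2a they mark TTC and GAA with 4 bases between them, the spacing that STAT6 binds. In Fcrla and Fcer2a they also mark CAGGTG, an E-box of the E proteins. Sequences run 5′ to 3′ on the strand of the gene.
Fcgr3, chr1:171059395-171059444, minus strand: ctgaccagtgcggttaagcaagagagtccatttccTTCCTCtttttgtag
Fcgr4, chr1:171018869-171018925, plus strand: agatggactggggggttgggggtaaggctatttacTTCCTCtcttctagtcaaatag
Fcmr (Faim3), chr1:130865706-130865776, plus strand: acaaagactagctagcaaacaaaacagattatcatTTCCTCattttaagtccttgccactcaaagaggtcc
Fcrla, chr1:170927584-170927655, minus strand: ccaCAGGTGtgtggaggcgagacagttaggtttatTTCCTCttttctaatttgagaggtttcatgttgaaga
Fcer2a, chr8:3690940-3691064, minus strand: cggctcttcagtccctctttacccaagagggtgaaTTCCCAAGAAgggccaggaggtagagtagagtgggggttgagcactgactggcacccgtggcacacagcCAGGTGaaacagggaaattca

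Searched on both strands, GAGGAA was in the windows of Fcgr1, Fcgr3, Fcgr4, Fcmr and Fcrla, and in 28.3% of all 32851 windows of the same length. In these 5 genes it lay upstream of the start and on the strand opposite to the gene. It was not in the windows of Fcgr2b, Fcer1g or Fcer2a. The genes with this match therefore included 2 that fell (Fcgr3 and Fcgr4), 2 that rose (Fcmr and Fcrla) and 1 without a measured level (Fcgr1). TTC and GAA with 4 bases between them stood in 1 window of Fcer2a alone among the members, with the first base at -168 from the start, and in 6.95% of all windows. With 3 bases between them, the spacing of other STAT proteins, they stood in Fcgr1 (8.30% of all windows), and CAGGTG was in Fcer2a at -244 and -99, in Fcrla at -69 and in Fcmr after the start (20.2%). An IRF-type sequence, GAAA and GAAA with 2 bases between, was in Fcrla at -192 and in Fcgr4 at -73 (3.44%). Within a window no match overlapped another. The 2 windows of Fcgr3 overlap almost wholly, and their matches at -15 and -6 are the same site on chromosome 1. The percentages count windows, not genes, and genes with several windows had more chances of a match. That holds for Fcer2a, and hardly for Fcgr3. A match describes letters only, and no binding was measured.

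**Figure D2:**
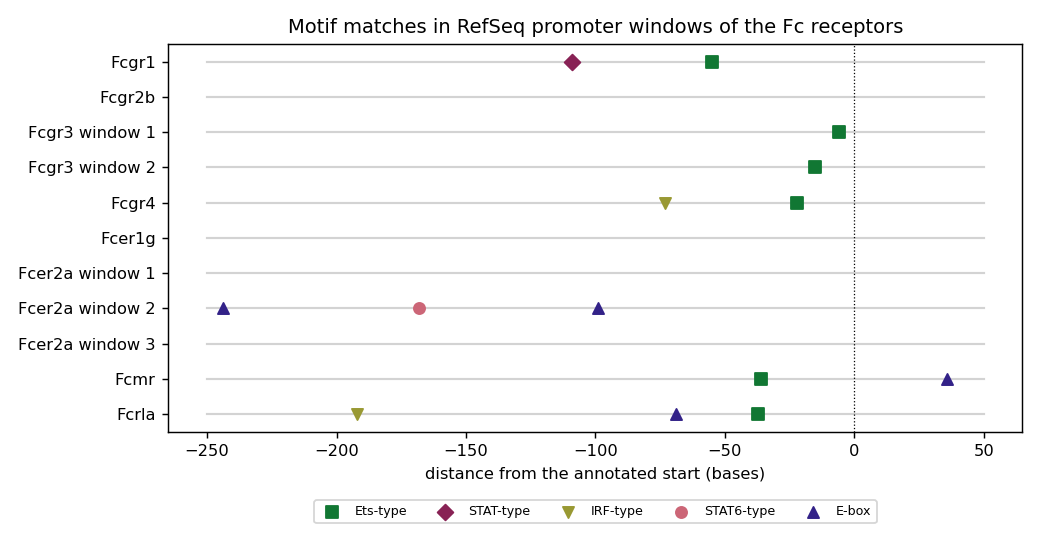
The 5 searched motifs in the RefSeq promoter windows of the 8 genes, with 1 line for each window and the distance from the annotated start in bases on the horizontal axis (250 before to 50 after). Squares for GAGGAA sit within 55 bases upstream of the start in the 5 genes that hold it, and the circle for the STAT6-type match appears in 1 of the 3 Fcer2a windows.

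Among the IgG receptors, the activating Fcgr4, a receptor of myeloid cells for IgG2 antibodies, fell most. Its probe (A_51_P181517) read -1.67 and -1.83 on the control arrays and -3.67 and -3.65 on the imatinib arrays, in log2 units above or below the array's 75th percentile. Both imatinib arrays were thus well below both control arrays, and the gap between groups was many times the gap within either. The log2 difference was -1.91 (SE 0.081, 95% interval -2.14 to -1.69, n = 2 arrays a group, limma adjusted p = 0.00101), the 69th lowest of the 25375 probes tested. The signals behind it were 233 and 240 intensity units in control and 54.8 and 53.9 with imatinib. With normexp correction the difference was -1.22, still past the threshold. That setting adds an offset of 50 units to every signal, which by itself shrinks differences between low signals. The parts of offset and background in the smaller value were not tested.

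Fcgr3, the activating IgG receptor of myeloid and NK cells, read -1.42 on both control arrays and -2.05 on both imatinib arrays (probe A_52_P408757). The 2 arrays of each group were nearly the same, and the groups were apart. Its log2 difference was -0.63 (SE 0.056, 95% interval -0.78 to -0.47, limma adjusted p = 0.00437). The probe's sequence is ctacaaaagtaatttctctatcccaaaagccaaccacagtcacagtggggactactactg, shown because the antibody-binding domains of Fcgr3 and Fcgr2b are close in sequence. Where the probe lies in its transcript, and whether it also takes up Fcgr2b RNA, was not tested.

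Fcgr2b, the inhibitory receptor, was printed as 10 spots of 1 probe (A_51_P130095) on each array. It read 1.51 and 1.66 in control and 1.04 and 1.03 with imatinib. The 10 spots of an array had an SD between 0.056 and 0.086, so the gap between the 2 control arrays was larger than the spread of the spots. Both imatinib arrays were lower than both control arrays. The log2 difference was -0.55 (SE 0.078, 95% interval -0.76 to -0.34, limma adjusted p = 0.0108). Leaving out imatinib replicate 1 gave -0.56 with an adjusted p of 0.0621, and leaving out imatinib replicate 2 gave -0.54 with 0.0649 (limma). Over its alternatives the adjusted p ran from 1.51e-05 to 0.0649.

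Fcgr1, the high-affinity IgG receptor of macrophages and monocytes, had no usable level. Its probe (A_55_P2008740) was not well above background on any of the 4 arrays, with signals of 2.08 and 2.29 in control and 4.30 and 4.48 with imatinib. It was not tested, and it takes no part in the counts of members that moved.

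The change of each tested member was also set against that of Fcgr2b on the same array, which removes any constant scaling of an array. Fcgr3 fell by 0.08 more than Fcgr2b on the log2 scale, with a pooled SD of 0.078 between arrays (exact two-sided permutation p = 0.667). With normexp correction the sign of that small difference turned, to 0.052. The changes of the activating Fcgr3 and the inhibitory Fcgr2b thus differed by about the spread between arrays. Whether they differ cannot be decided by this test, which with 4 arrays cannot reach the threshold for any member. For Fcgr4 the log2 ratio to Fcgr2b went from -3.18 and -3.49 in control to -4.71 and -4.68 with imatinib, a further change of -1.36 (normexp -0.70, quantile -1.56). The exact p was 0.333, the smallest that 4 arrays can give, and all 6 such comparisons had a Benjamini-Hochberg adjusted p of at least 0.4.

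Fcer1g rose, while Fcgr3 and Fcgr4, IgG receptors with which it pairs, fell. It encodes the gamma chain shared by Fcgr1, Fcgr3, Fcgr4 and the high-affinity IgE receptor. Its probe (A_51_P405476) read -1.21 and -1.19 in control and 1.27 and 1.26 with imatinib. The arrays of a group lay close together beside the gap between the groups. The log2 difference was 2.47 (SE 0.057, 95% interval 2.31 to 2.62, limma adjusted p = 0.000679), the 276th highest of 25375. Signals rose from 319 and 374 to 1688 and 1623 intensity units. Against Fcgr2b, its log2 ratio went from -2.72 and -2.85 to 0.23 on both imatinib arrays, a change of 3.02 or 8.09-fold (exact p = 0.333, the smallest possible; normexp 2.80).

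**Figure D3:**
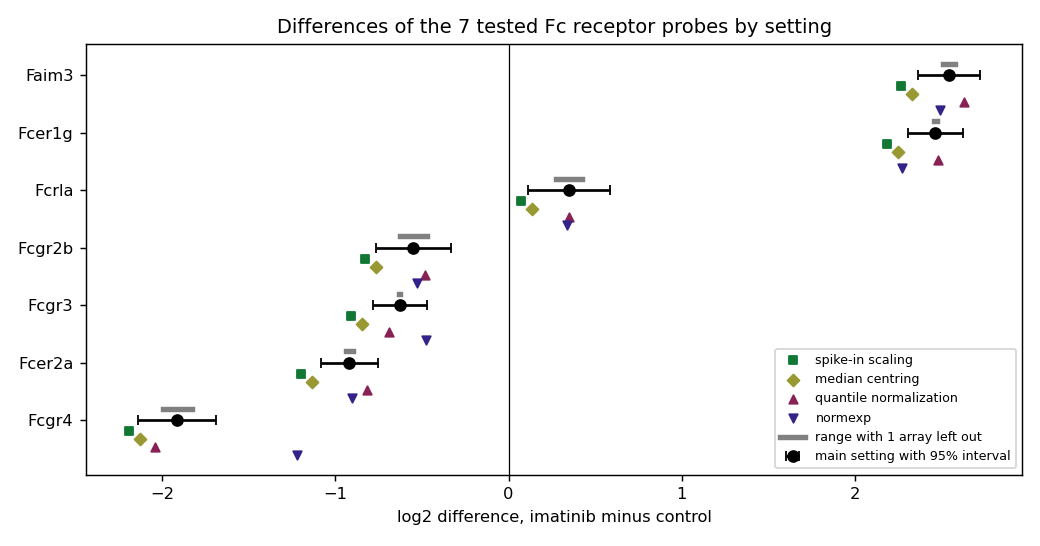
Log2 difference between imatinib and control (horizontal axis) for the 7 tested members, with the 95% interval of the limma fit (black), the value under 4 other scalings or background corrections (coloured marks) and the range with 1 array left out (grey bar). Each of the 7 members keeps its sign under all of them. Fcrla comes nearest to 0, at 0.071 with spike-in scaling, and Fcgr4 moves most with normexp correction and its offset, to -1.22.

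Fcer2a, the IgE receptor CD23, fell. Its probe (A_55_P2117345) read 4.11 and 4.08 in control and 3.16 and 3.20 with imatinib, from signals of 12801 and 14435 against 6238 and 6221 intensity units. No spot of the array was saturated, and the groups were clearly apart. The log2 difference was -0.92 (SE 0.059, 95% interval -1.08 to -0.76, limma adjusted p = 0.00222), the 472nd lowest of 25375. Relative to Fcgr2b it changed by -0.37 (exact p = 0.333). The STAT6-type match shown above lies in 1 of its 3 promoter windows.

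By their 4 centred array values, the genes most like Fcer2a among 12035 searched were Usp51 (Euclidean distance 0.016 log2 units over 4 arrays), Wdr86 (0.027) and Bcl6 (0.034), the last a transcriptional repressor of germinal centre B cells. Bcl6 differed by -0.93 on the log2 scale (limma adjusted p = 0.00204). For Fcer1g they were Hpgds (0.033), a prostaglandin D synthase, Nhlh1 (0.065) and Cd8a (0.065), a chain of the T cell coreceptor CD8, whose own log2 difference was 2.44. With 4 arrays in 2 groups, such likeness reflects little beyond the size of the group difference.

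Faim3, the receptor for IgM, rose most of the members. Its probe (A_51_P378298) read 1.25 and 1.31 in control and 3.79 and 3.86 with imatinib. Signals were 1762 and 2117 against 9686 and 9854 intensity units, so both imatinib arrays stood far above both control arrays. The log2 difference was 2.55 (SE 0.064, 95% interval 2.37 to 2.72, limma adjusted p = 0.00071), the 247th highest. Its log2 ratio to Fcgr2b rose by 3.09 or 8.54-fold (exact p = 0.333; normexp 3.02).

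Fcrla encodes an intracellular Fc receptor-like protein of B cells, found in the endoplasmic reticulum. Its probe (A_51_P154485) read -0.04 and -0.19 in control and 0.29 and 0.18 with imatinib. The groups did not overlap, though they lay closer together than for any other tested member. The log2 difference was 0.35 (SE 0.086, 95% interval 0.12 to 0.59, limma adjusted p = 0.0379), and over its alternatives the adjusted p ran from 0.00116 to 0.576. It was 0.14 with median centring and 0.071 with spike-in scaling, settings under which the median of all probes was itself -0.22 and -0.28. The call was also lost with no filter on dim probes and without control replicate 2 (0.28, adjusted p = 0.103), imatinib replicate 1 (0.30, 0.167) or imatinib replicate 2 (0.40, 0.105) in limma. Relative to Fcgr2b, Fcrla changed by 0.90 (exact p = 0.333). The Fcrla probe shares a run of at least 15 bases with 1 other probe on the array, named D030025E07Rik in the files.

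Several members lie side by side. In the RefSeq table (GRCm38.p6), 13 protein-coding genes stand in a row on chromosome 1 from Fcrla to Fcer1g, with Fcgr2b, Fcgr4 and Fcgr3 between them, and 11 of the 13 had a tested probe. Of those, 3 rose, 4 fell and 4 did not pass the threshold, beside 41.9% of all probes tested that passed. The counts include the members themselves. Apart from the members, only Nr1i3 rose and only Cfap126 fell. The 3 adjacent IgG receptor genes all fell, with log2 differences of -0.55, -1.91 and -0.63. The next gene, Cfap126, a cilia gene, was -0.31 (limma adjusted p = 0.0273), and Sdhc, a subunit of succinate dehydrogenase, was -0.05 (0.541). Nearer to Fcer1g, the nuclear receptor gene Nr1i3 rose by 0.96 (limma adjusted p = 0.00884), while Tomm40l at -0.22 and Apoa2 at -0.11 did not pass. Within this row, members thus differed in direction.

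**Figure D4:**
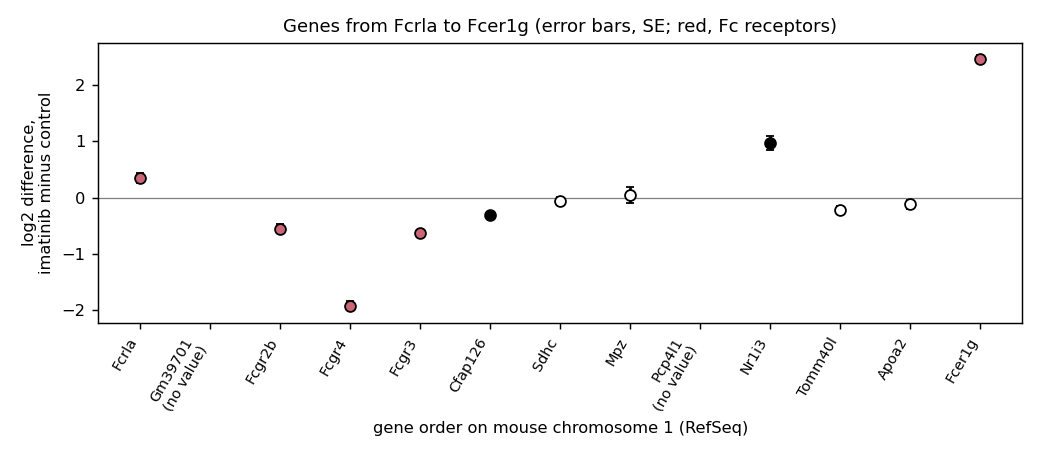
Log2 difference between imatinib and control (vertical axis, bars are the SE of the limma fit, n = 2 arrays a group) for the protein-coding genes from Fcrla to Fcer1g in their order on chromosome 1 (horizontal axis, not to scale), members in colour. The 3 IgG receptor genes lie side by side below 0, and Fcer1g at the far end is the highest at 2.47.

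Other Fc receptors were read from a list of 11 genes, of which 7 were tested, 3 rose and 1 fell, with a median of 0.01. Under median centring the median was -0.21 and under spike-in scaling -0.27. Counts in this list and the later ones, markers included, stand beside 41.9% of all probes tested that passed, 19.3% as higher and 22.5% as lower. Fcgrt, the neonatal receptor that recycles IgG, was 1.13 higher on the log2 scale (limma adjusted p = 0.00431; 0.50 with normexp), and Pigr, which carries polymeric IgA and IgM across epithelia, was 1.26 higher on its brightest probe and 1.32 on its other probe. The brightest Pigr probe holds a short repeat of 33 bases. The other Pigr probe read only 10.3 and 9.83 intensity units in control, and was above background on 1 of the control arrays. Fcrls, an Fc receptor-like gene of macrophages and microglia, rose by 2.19 (limma adjusted p = 0.000828, and 1.5 with normexp). Fcrl1, an Fc receptor-like gene of B cells, fell by 1.56 (limma adjusted p = 0.00121). Fcrl5 was -0.03 on its brightest probe (adjusted p = 0.794) and -0.65 on the other (0.0211), so its probes disagree, both by limma. Fcrlb at -0.13 and the intracellular antibody receptor Trim21 at 0.01 did not pass; with spike-in scaling Fcrlb (-0.41) and Fcrl5 (-0.31) did, as lower. Fcer1a and Ms4a2, the other chains of the high-affinity IgE receptor with which Fcer1g pairs, were not well above background on any array, and the same held for Fcamr and Fcrl6.

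The other adaptor chains that carry an ITAM or YINM motif were 6 genes, all tested, of which 3 rose and none fell (median 0.58). Tyrobp, the DAP12 adaptor of myeloid and NK cells, read -1.97 and -2.13 in control and 0.06 and 0.11 with imatinib, a log2 difference of 2.14 (limma adjusted p = 0.000902). Its groups did not overlap. Cd3e, a chain of the T cell receptor complex, rose by 1.27 (limma adjusted p = 0.00486), and Hcst, the DAP10 adaptor, by 0.86 (0.0076). Cd247, the zeta chain, was 0.29 on its brightest probe (adjusted p = 0.156 in limma) and 1.54 on another. The B cell receptor chains were at -0.06 (Cd79a) and -0.01 (Cd79b) and did not pass, though Cd79a passed as lower with median centring (-0.27) and both passed with spike-in scaling (-0.34 and -0.29), by limma.

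Besides the IgG receptors, 8 other genes were listed whose receptors are known to pair with the Fcer1g chain; 7 had a probe and 4 were tested. Of the 4, 3 rose and none fell, with a median of 2.73. These were the C-type lectins Clec4d (3.39), Clec4n (3.05), which is Dectin-2, and Clec4e (2.40), which is Mincle, receptors for fungal and mycobacterial glycolipids and glycans. Each had a limma adjusted p below 0.001 and no overlap of groups. With normexp correction they were smaller, at 2.58 for Clec4d, 2.48 for Clec4n and 1.66 for Clec4e, and still past the threshold. Clec4n read -2.96 and -2.82 in control and 0.15 and 0.17 with imatinib. Oscar, at 0.11, did not pass (limma adjusted p = 0.53), and Gp6, Ncr1 and Lilra5 were not well above background.

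Signalling genes below the receptors went both ways, as did all probes tested, of which 19.3% passed as higher and 22.5% as lower. Of 30 genes of the activating arm 29 were tested, 7 rose and 7 fell (median 0.09, -0.13 with median centring). Syk, the kinase recruited by the Fcer1g ITAM, fell by 1.15 (limma adjusted p = 0.00212), with 3.96 and 4.01 in control and 2.77 and 2.89 with imatinib, so it moved opposite to Fcer1g. Lat, a scaffold best known in T cells and mast cells, rose by 2.18, and Lyn, the Src kinase that phosphorylates ITAMs and ITIMs in B cells, fell by 0.66 (limma adjusted p = 0.0122). Leaving out imatinib replicate 1 or 2 ended the call on Lyn, with adjusted p of 0.0646 and 0.061 in limma. Of these 29 genes, 14 passed in all, but 6 without imatinib replicate 1 and 4 without imatinib replicate 2.

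The inhibitory arm held 17 genes, all tested, of which 8 rose and 3 fell (median 0.22, 0.01 with median centring and -0.06 with spike-in scaling). Lilrb4, an ITIM receptor of myeloid cells, rose by 3.43 (limma adjusted p = 0.000667) and by 2.84 on another probe. The phosphatase gene Ptpn22 rose by 1.25 and the adaptor Dok3 by 0.75. Cd22, the ITIM lectin of B cells, fell by 1.05 (limma adjusted p = 0.00154). Without imatinib replicate 1, and equally without replicate 2, 6 of the 17 passed in place of 11. Inpp5d, which encodes SHIP1, the phosphatase that Fcgr2b recruits, was at 0.22 and did not pass (limma adjusted p = 0.0567); it was named after its value was seen.

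Around CD23, 7 genes of its ligands, its sheddase and its inducing pathway were tested, of which 2 rose and 1 fell (median 0.14, -0.07 with median centring). Cr2, the CD21 receptor that binds CD23, was 0.54 higher (limma adjusted p = 0.0125), and that call was lost under spike-in scaling (0.26), with no filter and without either imatinib array, with adjusted p up to 0.0746. Itgax, the CD11c integrin chain, was not well above background on the control arrays and was at least 2.56-fold higher with imatinib (measured means -8.49 and -5.04, limma adjusted p = 0.00105). That bound is the imatinib mean against the mean of, per control array, the higher of the lowest signal well above background and the probe's own. With normexp correction and its offset of 50 units, the Itgax difference was 0.55 on the log2 scale, below that bound. Because it passed the filter through the imatinib arrays alone, its direction in the count is fixed by the filter. Itgam, the CD11b chain, was -1.12 on its brightest probe, which holds a short repeat of 20 bases, and 0.03 and 0.44 on its other probes. Adam10, the CD23 sheddase (0.14), Itgb2 (-0.22), Il4ra, the IL-4 receptor chain (-0.08), and Stat6 (0.19) did not pass. Their other probes ran up to 0.49 for Il4ra and from -0.20 to 0.47 for Stat6. With median centring Il4ra (-0.30) and Itgb2 (-0.43) passed as lower in limma, and with quantile scaling Stat6 (0.23) passed as higher. The calls on Il4ra, Itgb2 and Stat6 thus depended on the scaling, while Fcer2a was lower under each setting run.

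**Figure D5:**
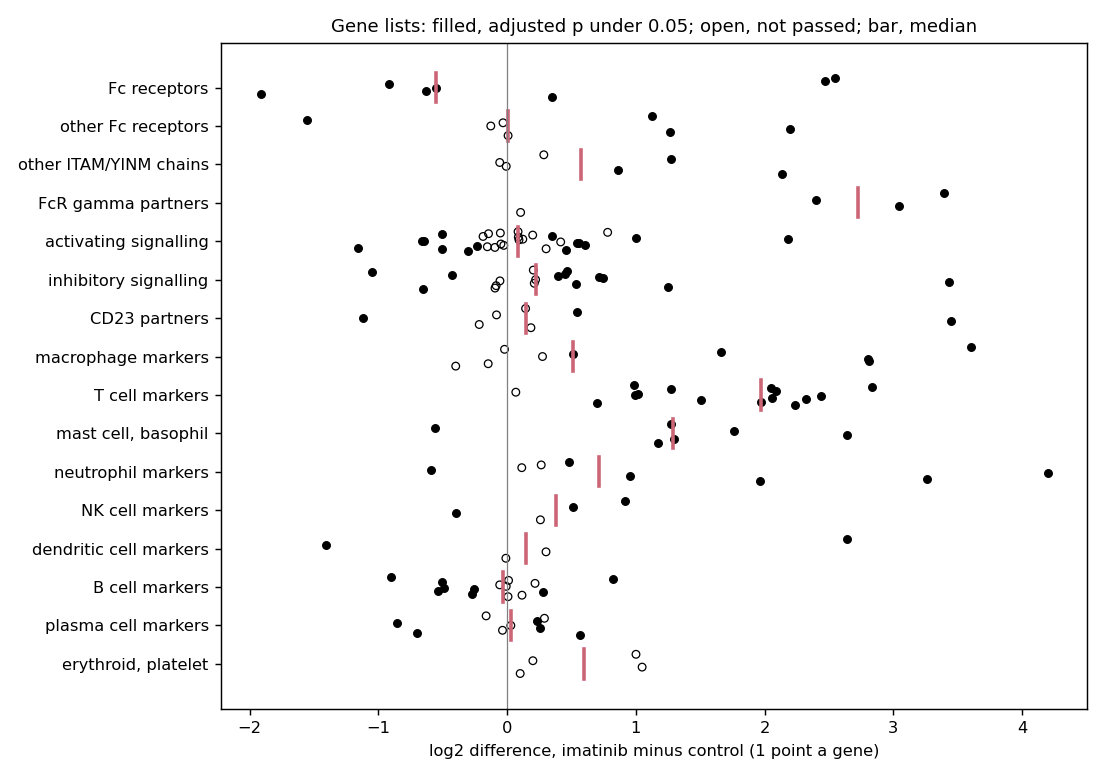
Log2 difference between imatinib and control (horizontal axis) for every tested gene of the Fc receptor lists and of the cell type marker lists, 1 point a gene (filled where limma's adjusted p was under 0.05), with the list median as a coloured bar. The Fcer1g partner lectins sit between 2.40 and 3.39 and the T cell markers mostly above 1, while the B cell markers spread around 0.

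Markers of several cell types moved beside these genes, and their part in the members' changes was not tested. All 14 B cell markers were above background; 2 rose and 6 fell, with a median of -0.03 (-0.25 with median centring and -0.31 with spike-in scaling) and a summed level of 489 and 463 in control against 470 and 477 with imatinib, in multiples of the array's 75th percentile. Of 15 macrophage and monocyte markers 9 were tested, 5 rose and none fell. Their median was 0.52, or 0.30 with median centring, 0.24 with spike-in scaling, 0.34 with quantile scaling and 0.25 with normexp. The summed level of this list was 4.04 and 3.86 in control and 8.78 and 8.86 with imatinib. Marco and Adgre1 made up most of that gain. On the scaled log2 axis Marco read -1.01 and -1.33 in control and 1.70 and 1.58 with imatinib. Adgre1 read -2.78 and -2.84 in control and 0.83 and 0.76 with imatinib. Within that list the largest rises were of Adgre1 (F4/80, 3.60), Marco (2.81) and Lyz2 (2.81). Csf1r at 0.28, Mpeg1 at -0.15, C1qb at -0.02 and Siglec1 at -0.40 did not pass. Siglec1 was above background on only 1 of the imatinib arrays. C1qa, C1qc, Mertk, Cd163, Vsig4 and Timd4 were not well above background. Fcgr4 and Fcgr3, which macrophages express, fell while 5 of the 9 tested markers rose, and Fcer1g rose.

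T cell markers rose in 14 of 15, with a median of 1.97 (1.75 with median centring and 1.69 with spike-in scaling) and a summed level of 28.3 and 27.3 in control against 59.7 and 59.9 with imatinib. Mast cell and basophil markers rose in 5 of 6 tested and fell in 1, with summed levels of 0.354 and 0.334 against 0.89 and 0.739. Mcpt4, Gata2 and Cma1 were not well above background on any array. Tpsab1 was so on imatinib replicate 1 alone, with 112 intensity units against 1.57 on imatinib replicate 2, and was not tested. Its level on that 1 array is part of the sum of 0.89. Cpa3 and Mcpt8 were well above background on the imatinib arrays alone, so the filter fixed their direction in that count, and the other probe of Tpsb2 was at 0.04. Neutrophil markers rose in 5 and fell in 1 of 8 tested (median 0.72, or 0.35 with normexp). S100a9, among the 5, was above background on 1 of the 2 control arrays. NK cell markers rose in 2 and fell in 1 of 4 (median 0.38), and dendritic cell markers rose in 1 and fell in 1 of 4 (0.15). Plasma cell markers rose in 3 and fell in 2 of 9 (median 0.03). The dendritic and plasma cell medians turned to -0.07 and -0.19 with median centring and to -0.13 and -0.25 with spike-in scaling. The mast cell and basophil median was 1.29, or 1.07 and 1.01 with those scalings and 0.62 with normexp. Of 4 erythroid and platelet markers tested none passed in limma. Arrays held between 25018 and 26762 probes well above background, and their 75th percentile signal lay between 678 and 854 intensity units. Only 2 arrays a group limit the precision of every value.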

How the data were processed

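RNA of mouse splenocytes, isolated with an RNeasy kit per the labels' protocols, was labelled with Cy3 and measured on 4 arrays. The authors' deposited scanner output gives the intensity of each spot from Feature Extraction 9.1.3.1 on 1-colour Agilent arrays of design 026655, per the file headers; the processed signal is background-corrected within an array and not scaled between arrays. All 4 arrays lay on 1 slide, controls and imatinib alternating. Values in the authors' deposited table are on the log2 scale and matched log2 of the processed signal minus a constant for each array within 0.01 for 99.9% of probes; the medians of its columns were -4.10 and -4.17 (control) and -4.00 and -3.92 (imatinib).

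From the scanner files, control spots and outlier spots were left out, log2 processed signals of the spots of a probe were averaged, and the array's 75th percentile was subtracted. Testing required a probe to be well above background on the 2 arrays of control or of imatinib. Groups were compared with limma 3.58.1 in R 4.3.3 (group only, two-sided, threshold 0.05 after Benjamini-Hochberg over 25375 probes), checked on simulated data. The fit had 2 residual and 2.05 prior degrees of freedom. The brightest tested probe stood for a gene in lists. Named genes were every member, all tested genes of the lists of other Fc receptors, ITAM chains and CD23 partners, the 4 largest changes past the threshold of other pathway lists (1 of them is not reported here) and the 3 nearest patterns to Fcer1g and Fcer2a; Inpp5d, Oscar, the neighbouring genes and the single markers were added for description. Members and lists were chosen with earlier results of these data known. Alternatives were normexp (offset 50), quantile, median and spike-in scaling (8 spike probes), other filters, the deposited table, trend and robust variance, the mean over a gene's probes, a replicate block and leaving out each array. Leaving out an array in the ratios to Fcgr2b was chosen after seeing the data.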

Additional observations from a re-analysis of the deposited data

How the results depend on the processing

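With all 4 arrays kept, 6 or 7 member probes passed under every alternative run. In the main setting 7 passed, beside 10622 of the 25375 probes tested. Spike-in scaling gave 6 members beside 14532 of all probes, and median centring 6 beside 13127. The replicate block gave 6 beside 7164, and no filter 7 beside 4971. Faim3, Fcer1g, Fcgr4, Fcgr3 and Fcer2a kept direction and call under each of these alternatives in limma, and kept direction with any 1 array left out. Fcgr2b lost its call without imatinib replicate 1 (-0.56) or replicate 2 (-0.54), within a range of -0.63 to -0.47 over the 4 arrays left out. Fcrla lost its call with median centring (0.14), spike-in scaling (0.071), no filter (0.35) and the replicate block (0.35), and its values with 1 array left out ran from 0.28 to 0.43; the cause was not tested. With no filter 7 members also passed, but the dim Fcgr1 probe took the place of Fcrla.

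Replicate numbers do not pair the arrays in the labels, and same-numbered arrays did not deviate together (r = -0.07). With the number as a block, 6 members passed and 3509 probes were lower in place of 5717.

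Over all probes, median centring gave 3124 higher and 10003 lower, spike-in scaling 2810 and 11722, and no filter 4971 in all (2837 and 2134). With 1 array left out, 4040 to 8891 probes changed, 2417 to 4708 higher and 1560 to 4183 lower.

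The change against Fcgr2b reversed for Fcgr3 with normexp (0.052) and was -0.21 with quantile scaling. For Fcgr4 it was -0.70 and -1.56 under these, for Fcer1g 2.80 and for Faim3 3.02 with normexp. With 1 array left out it ran from -0.16 to -0.0018 for Fcgr3, from -1.52 to -1.20 for Fcgr4 and from 0.75 to 1.05 for Fcrla.

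Over all probes, 10622 passed in the main setting, 14532 with spike-in scaling, 4971 with no filter, 13127 with median centring and 12764 with the trended fit. Beside these, list genes that passed numbered 5 of the ITAM chains with spike-in scaling, and 6 of the activating and 7 of the inhibitory genes with no filter. Of the CD23 partners, 5 genes passed with median centring or the trended fit. With 1 array left out they were 4 to 12 of the activating, 6 to 10 of the inhibitory genes and 2 to 3 of the CD23 partners. Signals near background limit Fcgr1, and to a lesser degree Fcgr4.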
